A study of Mus musculus with 4 samples.

Results

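Regions of mouse liver chromatin in which open sites lay close together in both of 2 livers are described here. They were found by taking the wild-type distal peaks that overlapped a knockout peak by 1 bp or more, joining those separated by gaps of 12500 bp or less, and keeping groups of 5 or more peaks. The clusters were thus chosen by the peak calls of both libraries, and the density and sharing of their peaks are descriptions of that choice. Of 20496 such groups, 1249 (6.09%) qualified, and they held 8151 of the 38296 shared distal peaks (21.3%). A distal peak is one that the authors' annotation assigned to a gene as distal and to no gene as promoter. The 2 livers came from mice after bile duct ligation, which blocks the outflow of bile and scars the liver: one was wild type and the other carried a Mertk knockout. Both groups had the ligation, so no unligated liver enters any value below. Each genotype was represented by 1 ATAC library and 1 RNA library made from the same frozen-liver nuclei with the 10x Multiome assay, in which a transposase cuts open DNA and droplets barcode each nucleus. The labels do not give the number of animals, their sex, the time after ligation or the part of Mertk that was deleted.

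Distal open chromatin holds enhancers, short stretches that bind transcription factors and act on a promoter some distance away. Genes that mark a cell type are often surrounded by many enhancers, and stitching neighbouring sites is the usual way to delimit such domains. Mertk is a receptor through which macrophages take up dying cells, and an injured liver holds hepatocytes, bile duct cells, stellate cells, endothelial cells and leukocytes. The peaks were called on all nuclei of a library together. A missing peak can therefore mean fewer cells of a type or less open chromatin per cell, and these cannot be told apart.

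With 1 library per genotype there was no replicate, so no test between genotypes was made and every value is a description of these libraries. The wild-type library had 5828 nuclei and 40858512 ATAC fragments in them, and the knockout library had 5339 nuclei and 83996145 fragments, 2.06 times as many. The wild-type list held 72302 peaks and the knockout list 106319. The part of this depth difference in any value below was not tested.

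Member sequence is shown for 5 of the clusters, as examples that do not represent member peaks at large. They are the 5 windows, of 108 RefSeq start windows lying whole inside member peaks, that held matches to 3 different motifs. This choice was made after the matches were seen. Each window runs from 250 bases before to 50 bases after a gene start in RefSeq GRCm38.p6 (the assembly of mm10), 5′ to 3′ on the strand of that gene, and motif matches on either strand are in capitals. Most are starts of predicted transcripts that the authors' annotation did not treat as promoters.
Gm30368, chr15:78927922-78928221, minus strand, in the cluster led by Nol12 and Sh3bp1: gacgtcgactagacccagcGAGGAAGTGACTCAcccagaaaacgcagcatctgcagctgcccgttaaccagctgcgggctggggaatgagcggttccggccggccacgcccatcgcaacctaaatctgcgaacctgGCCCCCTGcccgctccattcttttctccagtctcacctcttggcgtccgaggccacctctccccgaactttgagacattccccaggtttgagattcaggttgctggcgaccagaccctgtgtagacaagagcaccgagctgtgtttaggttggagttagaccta
Gm34360, chr14:45664386-45664685, minus strand, in the A530076I17Rik cluster: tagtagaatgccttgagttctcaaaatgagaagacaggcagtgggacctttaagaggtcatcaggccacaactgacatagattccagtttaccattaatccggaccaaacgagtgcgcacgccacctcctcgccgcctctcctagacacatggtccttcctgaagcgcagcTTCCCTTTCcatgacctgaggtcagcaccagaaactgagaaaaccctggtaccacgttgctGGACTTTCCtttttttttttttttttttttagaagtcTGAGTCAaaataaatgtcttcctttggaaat
Gm11523, chr11:96880574-96880873, minus strand, in the Gm11523 cluster: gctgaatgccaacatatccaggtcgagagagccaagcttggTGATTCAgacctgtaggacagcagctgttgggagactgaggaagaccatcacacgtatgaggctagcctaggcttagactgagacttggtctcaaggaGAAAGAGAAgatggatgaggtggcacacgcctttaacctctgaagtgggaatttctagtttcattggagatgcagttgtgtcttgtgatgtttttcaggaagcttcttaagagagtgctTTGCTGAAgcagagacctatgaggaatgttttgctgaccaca
Gm31718, chr8:126853199-126853498, minus strand, in the cluster led by A630001O12Rik and Gm31718: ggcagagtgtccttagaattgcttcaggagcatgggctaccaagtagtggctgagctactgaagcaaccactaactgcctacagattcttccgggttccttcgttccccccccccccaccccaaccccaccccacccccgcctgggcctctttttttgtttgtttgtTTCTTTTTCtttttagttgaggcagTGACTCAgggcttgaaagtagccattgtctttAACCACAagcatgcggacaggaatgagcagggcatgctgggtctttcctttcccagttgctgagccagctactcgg
Bbc3, chr7:16310011-16310310, plus strand, in the Bbc3 cluster: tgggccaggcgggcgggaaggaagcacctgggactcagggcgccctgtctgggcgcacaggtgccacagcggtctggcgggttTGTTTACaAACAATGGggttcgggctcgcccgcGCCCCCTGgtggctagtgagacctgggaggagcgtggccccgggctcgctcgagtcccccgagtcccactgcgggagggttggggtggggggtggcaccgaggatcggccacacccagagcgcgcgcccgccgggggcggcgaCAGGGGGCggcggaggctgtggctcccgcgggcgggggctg
The capitals in the Gm30368 window are a PU.1 word (GAGGAAGT), which shares a base with the AP-1 word next to it (TGANTCA), and a CTCF word (CAGGGGGC). In the Gm34360 window they are an IRF word (GAAANNGAA), an NF-kB word (GGANTTTCC) and an AP-1 word. The Gm11523 window held AP-1, IRF and C/EBP (TTGCNNAA) words, and the Gm31718 window IRF, AP-1 and RUNX (TGTGGTT) words. The Bbc3 window held a forkhead word (TGTTTAC), a SOX word (AACAATGG) and CTCF words. PU.1 and IRF are blood-cell regulators, AP-1 responds to stress and growth signals, and CTCF marks boundaries of chromatin loops.

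Over the 108 member windows, the AP-1 word was in 15 (13.9%), against 10.0% of 350 windows in shared distal peaks outside clusters and 8.13% of all 29164 RefSeq windows of this length. The IRF word was in 17 (15.7%), against 9.71% and 8.62%. A control repeat word, CACACACA, was also more frequent in the member windows, in 10 (9.26%) against 5.71% and 4.18%. The PU.1 word was in 6 member windows (5.56%), beside 6.0% of shared windows outside clusters and 3.24% of all windows. It was in 1.59% of the 378 windows in knockout-only distal peaks. In the 98 windows of wild-type-only distal peaks the IRF word (15.3%) was about as frequent as in member windows, the AP-1 word was in 12.2%, the PU.1 word in 7.14% and the RUNX word in 17.3%. The C/EBP word was in 11.1% of member windows, 22.8% of knockout-only windows and in 3218 of all 29164. The HNF1 word (GTTAATNAT), bound by a hepatocyte factor, was in 1 member window (0.926%) and in 4.5% of knockout-only windows, beside 0.854% of all. Another control word, TATATATA, was in 0.0% of member windows, 1.59% of knockout-only windows and 0.854% of all. Mean GC content was 52.8% in member windows, 55.0% in shared windows outside clusters, 50.1% in knockout-only windows and 53.2% in all. The part of base composition in these shares was not tested. The CTCF word was in 4.63% of member windows and 2.84% of all, the forkhead word in 6.48% and 3.65%, the RUNX word in 5.56% and 5.49%, the SOX word in 1.85% and 1.1%, and the NF-kB word in 0.926% and 1.29%. A match is a description of letters and not a bound site, and 108 start windows are few beside 8151 member peaks.

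Hairpins of microRNAs also lay inside the clusters, and the mature strands of 7 are shown to let their seeds be compared. They were picked after the matches were seen, from the clusters with the most hairpins and from that of Mir34a, and other hairpins in clusters, such as Mir3074-2 beside miR-24, are not shown. In all, 42 of 1005 RefSeq hairpins (4.18%) lay within 36 clusters, and 8 of them lay in a member peak, none of which is among the 7 shown. For coding genes, 421 of 17492 starts (2.41%) lay within a cluster. Seeds, bases 2 to 8, are in capitals.
let-7a-5p, hairpin chr13:48538179-48538272: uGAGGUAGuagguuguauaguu
let-7f-5p, hairpin chr13:48537829-48537917: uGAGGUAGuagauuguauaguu
let-7d-5p, hairpin chr13:48536012-48536114: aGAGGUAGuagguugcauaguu
miR-23a-3p, hairpin chr8:84208518-84208592: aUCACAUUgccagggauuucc
miR-27a-3p, hairpin chr8:84208672-84208758: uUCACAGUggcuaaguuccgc
miR-24-3p, hairpin chr8:84208815-84208921: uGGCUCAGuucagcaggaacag
miR-34a-5p, hairpin chr4:150068454-150068555: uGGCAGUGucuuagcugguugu
The 3 let-7 strands share 1 seed, and their cluster at chr13:48515711-48552985 had 6 members, with 7 peaks of any kind in each library. The miR-23a, miR-27a and miR-24 hairpins differ in seed and sat in 1 cluster of 9 members at chr8:84186471-84223148, with 12 wild-type and 15 knockout peaks. The Mir34a cluster, led by Gpr157, had 6 members, with 8 wild-type and 10 knockout peaks.

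Most clusters were small. The median cluster had 6 members, the largest had 17, and 119 clusters had 10 or more. Spans ran from 6.51 to 115 kb, with quartiles of 23.0, 29.6 and 39.0 kb, and added to 40.6 Mb. The median gap between neighbouring members was 4.3 kb. On either side of the size threshold, 524 groups had exactly 5 peaks and a median span of 24.0 kb, and 955 groups had 4 peaks and a median span of 18.2 kb. On either side of the gap threshold, 831 gaps were up to 1 kb shorter than the limit and 755 were up to 1 kb longer. The plot of groups by size shows no break at 5 peaks.

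**Figure D1:**
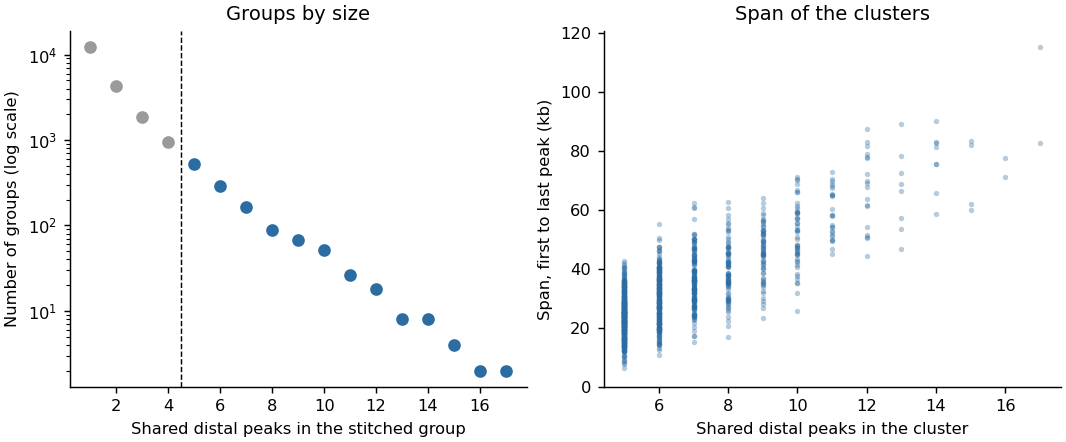
Left, number of stitched groups (log scale) by the number of shared distal peaks in a group; the dashed line separates the 1249 clusters of 5 or more (blue) from smaller groups (grey), and the counts fall steadily across it, from 955 at 4 peaks to 524 at 5. Right, span in kb of each cluster (1 point) by its number of peaks; the widest point is the Gm47705 cluster at 115 kb.

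Member peaks were like other shared distal peaks in size and place. Their median width was 866 bp, against 877 bp for the 30145 shared distal peaks outside clusters. Knockout peaks covered a median of 95.3% of a member's length and 95.1% of an outside peak's. By RefSeq coordinates 63.4% of members lay in a gene body, against 64.8% outside. The median distance to the nearest RefSeq start was 15.9 kb (quartiles 6.57 and 34.5) for 7928 members and 18.7 kb (7.08 and 44.4) for 29138 outside peaks; peaks on chromosome 18 were not measured for this distance.

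The gene to which the annotation assigned the most members of a cluster is called its lead gene, with ties kept. Of 17932 genes with a wild-type distal peak, 1319 (7.36%) led a cluster, and 2164 (12.1%) were assigned at least 1 member. In 741 clusters every member was assigned to 1 lead gene, and 141 clusters had tied leads. All members lay inside the RefSeq body of the lead gene in 379 clusters, some in 467 and none in 403. The last count includes clusters whose lead gene had no RefSeq coordinates, such as that of Gm47705. Of the 1319 lead genes, 1162 had them. Predicted or clone-named genes made up 26.2% of lead genes and 30.4% of all genes with a wild-type distal peak. Lead genes were long, with a median of 35.6 kb against 22.3 kb for the others. Whether gene length bears on leading a cluster was not tested.

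The 20 clusters with the most members had 13 to 17 each, and named genes led most of them, beside several predicted genes. Col4a1 encodes a collagen of basement membranes, and its cluster at chr8:11233861-11304794 had 16 members in 70.9 kb, all inside the gene body. It held 16 wild-type and 18 knockout peaks of any kind, and 13 members were assigned also to the neighbouring collagen gene Col4a2. S1pr1 encodes a sphingosine-1-phosphate receptor of endothelial cells and lymphocytes. All 13 members of its cluster at chr3:115641189-115709741 lay outside the gene body and were assigned to S1pr1 alone, with 16 peaks in each library. In each library, 3 of those peaks had no overlap in the other.

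Socs3, an inhibitor of cytokine signalling, led 15 members at chr11:117930543-117992381, 11 of them assigned to it and none inside its body. That span held 16 wild-type and 24 knockout peaks. Nr4a1, an immediate early nuclear receptor, led 16 members at chr15:101190738-101268356 with 8 assigned to it, and the span held 21 wild-type and 26 knockout peaks. Tsc22d3, a glucocorticoid-induced gene, led 13 members with 14 wild-type and 21 knockout peaks. In these 3 spans the knockout list held more peaks than the wild-type list, as it did in 660 of all 1249 clusters, with fewer in 261. Similar surpluses were in the spans led by Gm47705 (20 and 26) and by Gfod1 with Tbc1d7 (14 and 20).

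Further clusters among the 20 with the most members were similar in size. Arhgap25 led 14 members with 17 wild-type and 16 knockout peaks. Pik3r5, a subunit of the leukocyte phosphoinositide 3-kinase, led 14 with 16 and 15 peaks. The immune receptor genes Cd300a and Cd300lb tied as leads of 14 members, each with 6 assigned, and the span held 16 wild-type and 19 knockout peaks. Irf2, an interferon regulatory factor, led 14 members with 19 and 21 peaks. Rcsd1 led 15 members, 13 inside its body, with 16 and 18 peaks. In these 5 clusters the total counts of the libraries differed by at most 3 peaks. Single peaks differed more. The Irf2 span held 5 wild-type and 7 knockout peaks without an overlap in the other library. Such peaks numbered 1 and 4 at Cd300a with Cd300lb, 1 and 2 at Rcsd1, and 1 and 0 at both Arhgap25 and Pik3r5.

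The remaining large clusters were led by Gm47705 (17 members over 115 kb, the widest), Gm17749 (17 members, 8 assigned to it and 6 to Plekho2), Gm26759, Sp3os, Exoc6, Gfod1 with Tbc1d7, Rbms1, Frmd4b, Gm31728 and Pkig. All 14 members led by Rbms1 and all 14 led by Frmd4b lay inside those genes. The densest clusters were led by Aurkb, a mitotic kinase, with 5 members in 6.51 kb, Fbxo2 with 5 in 7.57 kb and Gm19276 with 5 in 8.0 kb.

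**Figure D2:**
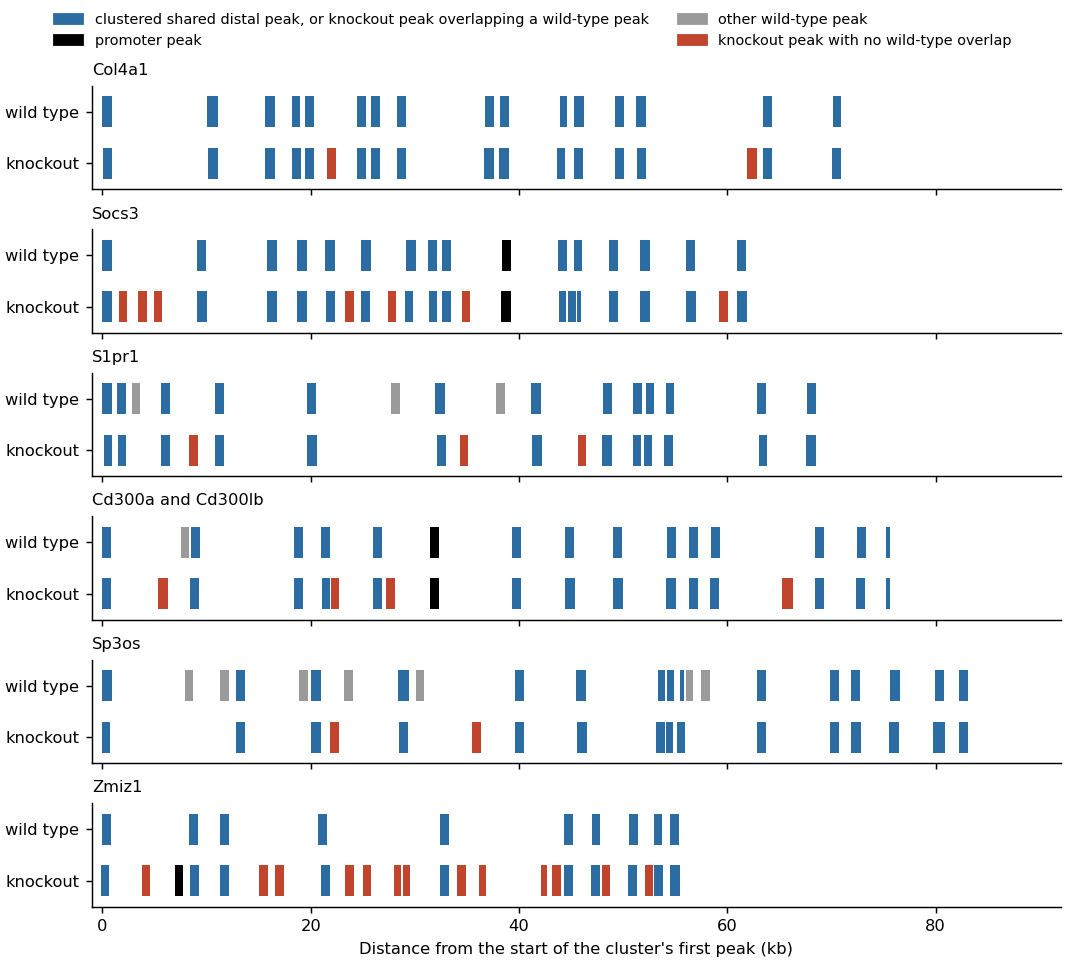
Peaks of the wild-type (upper row) and knockout (lower row) library in 6 clusters, as kb from the start of the first peak. Blue marks clustered peaks and the knockout peaks overlapping a wild-type peak, black marks promoter peaks, grey other wild-type peaks and red knockout peaks with no wild-type overlap. The rows align closely at Col4a1, and 14 red or black peaks in the knockout row at Zmiz1 have no wild-type counterpart.

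A total of 72 genes led 2 or more clusters. Those that led 3 or more, named after their values were seen, were Fgfr2 with 5 clusters and 28 clustered peaks, 4930488N15Rik with 4 and 27, Vav3 with 3 and 17 and Akap13 with 3 and 16. The Fgfr2 clusters lay at chr7:130646662-130682471 and beyond, outside the RefSeq body of Fgfr2 at chr7:130162451-130266808, although the annotation gives such peaks a distance of 0 to it. The reason for these assignments was not tested.

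Among the cell type lists, genes shared by all leukocytes, Kupffer cell genes and endothelial genes led clusters most often. Hepatocyte genes led none of 13, little different in so short a list from the 7.36% of all genes. Of the pan-leukocyte genes, 8 of 18 (44.4%) led a cluster, against 7.36% of all genes. They included Inpp5d, a phosphatase that restrains immune signalling, with 9 members in its cluster and 11 wild-type and 10 knockout peaks. Plcg2, a phospholipase of immune receptor pathways, led 7 members with 7 wild-type and 8 knockout peaks. Vav1, a blood-cell exchange factor, led 6 members with 7 peaks in each library, and Laptm5, a lysosomal protein of leukocytes, led 6 with 7 and 10.

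Macrophages that reside in the liver sinusoids are called Kupffer cells, and 5 of 12 of their genes (41.7%) led a cluster. Adgre1, which encodes a surface receptor used as a macrophage marker, led 7 members at chr17:57334491-57360468 with 8 wild-type and 9 knockout peaks. Timd4, a receptor for dying cells, led 5 members with 6 peaks in each library. Cd5l, a secreted macrophage protein, led 5 with 8 wild-type and 7 knockout peaks. Marco, a scavenger receptor, led 5 with 5 and 6, and Id3 led a cluster of 5 of which 3 were assigned to it. The total counts of the 2 libraries differed by at most 1 peak in each of these spans. Near-equal counts are in part fixed by the rule, which required 5 or more overlapping peaks per cluster. Over the 5 clusters, 3 wild-type and 5 knockout peaks had no overlap in the other library. The count depends on the cluster definition: with a gap of 5 kb, or with clusters of 8 or more peaks, no Kupffer cell gene led (0.0%), beside 1.23% and 1.68% of all genes.

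Of the endothelial genes, 7 of 19 (36.8%) led a cluster. Fli1, an ETS factor of endothelium and blood, led 7 members with 10 peaks in each library. Egfl7, an endothelial secreted factor, had a cluster of 9 members with 9 wild-type and 12 knockout peaks. Pecam1, an adhesion molecule of endothelial junctions, had 9 members with 11 and 18 peaks, and Flt1, a VEGF receptor, had 6 members with 6 and 7. Over the 7 clusters there were 53 wild-type and 68 knockout peaks, with more in the knockout in 5 and equal numbers in 2.

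Genes of other blood cells led as follows, and under both stricter definitions no dendritic cell or neutrophil gene led. Monocyte and macrophage genes led in 4 of 19 cases (21.1%): Cx3cr1, Csf1r, Sirpa and Ccr2. Their 4 clusters held 42 wild-type and 36 knockout peaks, and the knockout had fewer in 3. The Ccr2 cluster, around a chemokine receptor of recruited monocytes, held 10 wild-type and 6 knockout peaks. Dendritic cell genes led in 3 of 13 (23.1%), namely Ccr7, Itgae and Xcr1, with 21 wild-type and 16 knockout peaks and fewer in the knockout in all 3. Neutrophil genes led in 2 of 13 (15.4%), Csf3r and Mmp9, with 17 and 13 peaks. The peak counts of these 3 lists rest on 2 to 4 clusters each. Over all 1249 clusters the knockout had fewer peaks in 261 and more in 660. T and natural killer cell genes led in 3 of 18 (16.7%), B and plasma cell genes in 1 of 11 (9.09%, Bach2) and erythroid and megakaryocyte genes in 1 of 6 (16.7%, Tal1).

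Of the cells of the liver itself, no hepatocyte gene of 13 with a wild-type distal peak led a cluster, and 9 others of the 22 on the list had no wild-type distal peak. Foxa2, a hepatocyte transcription factor, had 6 shared distal peaks and none in a cluster, and Apoa1, an apolipoprotein gene, had 5 and none. For cholangiocytes, the cells of bile ducts, 1 gene of 11 led (9.09%): Muc1, with 2 of 8 members, tied with Krtcap2. For stellate cells and fibroblasts 1 of 11 led (9.09%): Acta2, the smooth muscle actin of activated stellate cells, with 5 of 6 members. No mesothelial gene of 5 led.

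The lists also differed in how many shared distal peaks their genes had, which bears on how often they could lead. The median was 1.0 shared peak for hepatocyte genes, 2.0 for Kupffer cell genes, 5.5 for pan-leukocyte genes, 7.0 for endothelial genes and 2.0 for all genes. Their median gene lengths were 10.2, 18.6, 47.7, 46.2 and 23.0 kb in the same order. Among genes with 5 or more shared peaks, 37.0% of all genes led a cluster. The corresponding counts were 7 of 12 pan-leukocyte genes (58.3%), 5 of 5 Kupffer cell genes, 6 of 11 endothelial genes (54.5%), 4 of 11 monocyte and macrophage genes (36.4%) and 0 of 2 hepatocyte genes. The monocyte and macrophage share was thus near that of all genes with as many peaks.

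Pathway lists were led by genes of actin and adhesion signalling, of which 10 of 19 (52.6%) led a cluster. Ptk2b, an adhesion kinase, led 2 clusters with 11 clustered peaks, and Lyn, a Src family kinase of blood cells, led 9 members with 9 wild-type and 12 knockout peaks. Actb, the cytoskeletal actin, had 11 members with 11 and 13 peaks, and Vcl, which links actin to adhesions, had 5 members with 5 and 7. The 11 clusters held 79 wild-type and 102 knockout peaks, with more in the knockout in 8. These genes had a median of 8.0 shared distal peaks and a median length of 47.9 kb, against 23.0 kb for all genes.

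Of AP-1 and immediate early genes 6 of 20 led, with Nr4a1, Fosl2, Atf3 and Ier2 having the most clustered peaks. Myeloid transcription factors led in 6 of 20 cases: Bach1 had 12 clustered peaks, and the span of its largest cluster held 11 wild-type and 16 knockout peaks. Irf5 led a cluster with 8 peaks in each library, and that of Mef2c held 7 wild-type and 4 knockout peaks. For NF-kB and cytokine signalling the count was 5 of 22 (22.7%), with Socs3, Jak2, Tnfaip3 and Il1b. Lymphoid transcription factors led in 3 of 17 (17.6%): Foxp1, Ets1 and Bach2.

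For uptake of dying cells, 6 of 22 genes led (27.3%). Itgb5, an integrin subunit, led 2 clusters, Lrp1, a scavenger receptor, led 9 members with 10 wild-type and 9 knockout peaks, and Elmo1, an engulfment adaptor, led 8 with 10 and 11. Mertk itself had 9 wild-type and 11 knockout distal peaks, of which 5 were shared and none was in a cluster, and its largest stitched group had 3 peaks. Its relative Axl had 3 shared peaks and Tyro3 none, and the ligand genes Gas6 and Pros1 had 2 and 1. None of these 5 genes had a clustered peak, and most genes had none: 12.1% of genes with a wild-type distal peak were assigned 1 or more. Tyro3 could have none, since it had no wild-type distal peak.

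For clusters of shared peaks, fibrosis and bile acid lists lay nearer the background. The TGF-beta pathway had 2 of 18 (11.1%): Smad3, a signal transducer, with 11 members and 13 wild-type and 15 knockout peaks, and Ski, a repressor of Smads, with 11 members and 11 and 17 peaks. The extracellular matrix list had 2 of 18 (11.1%), Col4a1 and Sparc. Of bile acid genes 1 of 14 led (7.14%): Abcc4, an export pump of the blood-facing membrane, with 7 members inside the gene and 7 peaks in each library. Of hepatocyte transcription factors 1 of 15 led (6.67%), Cebpb, which is in the myeloid list too. Housekeeping genes had 1 of 19 (5.26%, Rab7) and ribosomal protein genes 0 of 18, beside 7.36% for all genes.

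The same stitching of the 49403 knockout-only distal peaks gave 1643 clusters, led by 1678 of 21633 genes with a knockout distal peak (7.76%). There, 10 of 22 hepatocyte genes (45.5%), 9 of 19 hepatocyte transcription factors (47.4%) and 10 of 20 bile acid genes led, while pan-leukocyte genes and Kupffer cell genes gave 0 of 18 and 0 of 15. Neutrophil, dendritic, T and natural killer, B and plasma, erythroid and megakaryocyte, and housekeeping genes also led none, beside 7.76% of all genes. Endothelial genes led in 6 of 20 and actin and adhesion genes in 6 of 19 (31.6%), so these lists led clusters of both kinds. The 18739 wild-type-only distal peaks gave 146 clusters, led by 164 genes (0.915%). Of shared-peak clusters, 135 (10.8%) overlapped a knockout-only cluster. A total of 227 genes led both kinds, which is 17.2% of the shared-cluster leads and 13.5% of the knockout-only leads.

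**Figure D3:**
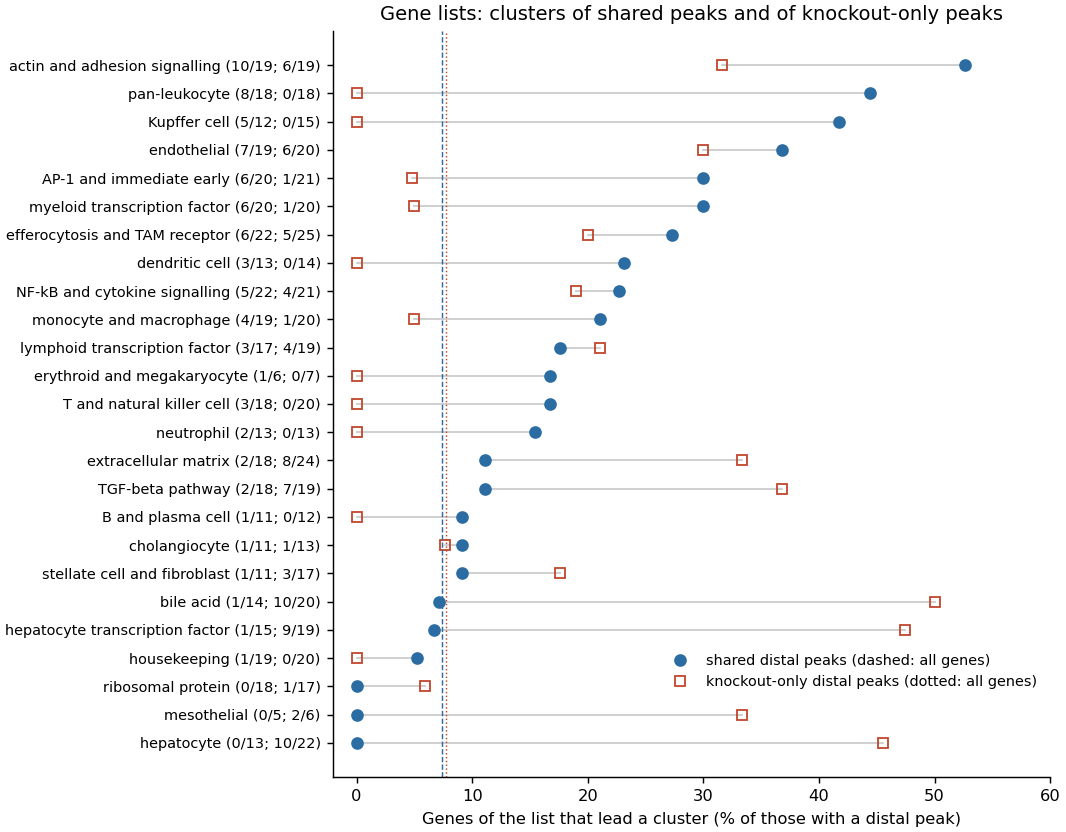
Percent of each list's genes with a distal peak that led a cluster of shared peaks (filled circles) or of knockout-only peaks (open squares), with the counts in brackets in that order; the dashed and dotted lines are all genes, at 7.36% and 7.76%. Pan-leukocyte and Kupffer cell genes lie at 44.4% and 41.7% for shared clusters and at 0 for knockout-only ones, and hepatocyte genes lie at 0 and 45.5%. Several other lists, housekeeping genes among them, also lie at 0 for knockout-only clusters.

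Peaks with a promoter line were left out before stitching, and whether a lead gene had a promoter peak was no condition of the choice. Of lead genes, 71.4% (942 of 1319) had a promoter peak in both libraries, 7.28% in the knockout alone, 2.65% in the wild type alone and 18.7% in neither. Among other genes with a wild-type distal peak the share with a promoter peak in both was 57.3%. Among genes that led no cluster but had 5 or more shared distal peaks it was 70.0%, and for those with a gene name it was 84.2%, as it was for lead genes with a gene name. Of knockout-only cluster leads 62.8% had a promoter peak in both libraries and 16.4% in the knockout alone. A wild-type promoter peak lay within the span in 418 clusters (33.5%).

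Counting peaks of every kind, the spans held 9586 wild-type peaks (8.04 Mb, mean width 839 bp) and 10604 knockout peaks (8.96 Mb, mean width 845 bp). The ratio was 1.11, against 1.47 over the whole lists. Knockout peaks without a wild-type overlap made up 18.4% of knockout peaks in the spans and 50.7% of all knockout peaks. Wild-type peaks without a knockout overlap made up 9.59% and 27.6%. Since each cluster was required to hold at least 5 overlapping peaks, the lower ratio and the lower shares are in part fixed by that choice. The knockout had more peaks than the wild type in 660 clusters, as many in 328 and fewer in 261, and 212 clusters held no peak particular to 1 library.

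The clusters with the greatest surplus were named after their values were seen. Zmiz1, a transcriptional coregulator, led 10 members at chr14:25472543-25527934 with Gm47921, and the span held 10 wild-type and 24 knockout peaks. The Gm48190 cluster held 10 and 20, the cluster of Itpr1, a calcium release channel, 12 and 21, and the 1600002D24Rik cluster 10 and 19. In the other direction, the Sp3os cluster held 22 wild-type and 17 knockout peaks. The Cox4i1 cluster, in which 4 of 10 members were assigned to the myeloid factor gene Irf8, held 16 and 11. The Gm15777 cluster held 15 and 10, and the Rad18 cluster 11 and 6. These 4 spans are extremes among the 1249 clusters, and the part of depth in their counts was not tested.

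**Figure D4:**
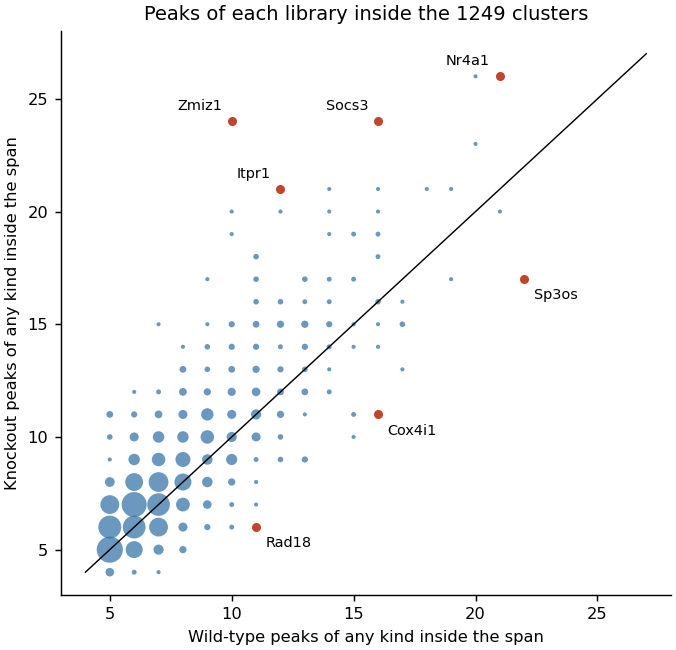
Wild-type (x axis) and knockout (y axis) peaks of any kind within the span of each of the 1249 clusters; the area of a blue point grows with the number of clusters at that place, red points are named, and the line marks equal numbers. More clusters lie above the line (660) than below it (261), and Zmiz1 stands farthest above with 10 and 24.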

How the data were processed

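Nuclei of 1 wild-type and 1 Mertk knockout liver preparation were profiled with 10x Multiome, with 1 ATAC and 1 RNA library each. Per the file headers, the authors ran cellranger-arc 2.0.2 with an mm10 reference, and peaks were called per library. Settings of the caller were not stated. The authors deposited each peak as a position without a score, and the deposited annotation lists the genes of each peak, its type and a distance. That distance is 0 for overlap with a gene body, and assignments reach 200.0 kb. Depth was taken from the raw counts of the deposited barcode tables. The RNA per gene was not used here.

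Autosomal, X and Y peaks were kept. Overlap and stitching were coded in Python 3.11.15, tested on simulated peaks, and checked with bedtools 2.31.1, which gave the same 38296 shared peaks, 20496 groups and 1249 clusters. RefSeq GRCm38.p6 supplied gene bodies, starts, promoter windows and microRNAs. For 93.7% of 12426 promoter assignments, a RefSeq start lay within 1 kb. Motif shares had been planned on the centres of peaks. No genome of the build was used here, so RefSeq start windows took their place, and overlapping windows were counted once. There were 25 gene lists with 448 distinct genes, 355 of them with a wild-type distal peak and 38 in 2 or more lists. The members and lists were chosen with earlier results of these data known. The text names lead genes of the 20 clusters with the most members, of the 3 widest and 3 densest, list members among the 4 with the most clustered peaks in their list, and Mertk, Axl, Tyro3, Gas6 and Pros1. Some further members are named because they complete a small count, and these, like Id3, Foxa2 and Apoa1, were chosen after their values were seen. No test between genotypes was made.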

Additional observations from a re-analysis of the deposited data

How the results depend on the processing

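The stitching gap and the smallest cluster size set most counts, since both define the clusters. How list shares stood against all genes under each choice is therefore given beside them; as reported, 19 of 25 lists lay above all genes. A share is given as moved where it left the exact 95% binomial interval of the reported share, which is wide for a short list: 3 of 18 T and natural killer cell genes led as reported and 1 of 18 (5.56%) with clusters of 8 or more, inside that interval. A count is given as moved beyond 1.5 times. With a gap of 5 kb there were 202 clusters with 1129 members, led by 1.23% of genes, and 10 lists lay above all genes. List shares that moved were 0.0% (cholangiocyte, stellate cell and fibroblast, Kupffer cell, monocyte and macrophage, neutrophil, dendritic cell, B and plasma cell, erythroid and megakaryocyte, lymphoid transcription factor, hepatocyte transcription factor, TGF-beta pathway, bile acid), 4.55% (NF-kB and cytokine signalling, efferocytosis and TAM receptor), 5.0% (AP-1 and immediate early, myeloid transcription factor), 5.26% (endothelial), 16.7% (pan-leukocyte) and 21.1% (actin and adhesion signalling). With a gap of 25 kb there were 2255 clusters with 18429 members, led by 13.6% of genes, and 18 lists lay above all genes. List shares that moved were 38.9% (TGF-beta pathway), 54.5% (efferocytosis and TAM receptor) and 63.2% (endothelial). With clusters of 3 or more peaks there were 4081 clusters with 17602 members, led by 22.4% of genes, and 16 lists lay above all genes. List shares that moved were 33.3% (hepatocyte transcription factor), 38.9% (TGF-beta pathway, extracellular matrix), 50% (NF-kB and cytokine signalling), 55.0% (AP-1 and immediate early), 63.2% (monocyte and macrophage), 73.7% (endothelial), 75% (myeloid transcription factor) and 77.8% (pan-leukocyte). With clusters of 8 or more peaks there were 274 clusters with 2661 members, led by 1.68% of genes, and 13 lists lay above all genes. List shares that moved were 0.0% (stellate cell and fibroblast, Kupffer cell, neutrophil, dendritic cell, B and plasma cell, lymphoid transcription factor, hepatocyte transcription factor, bile acid, housekeeping), 5.0% (AP-1 and immediate early), 5.26% (monocyte and macrophage), 9.09% (efferocytosis and TAM receptor), 10.0% (myeloid transcription factor), 10.5% (endothelial), 11.1% (pan-leukocyte) and 21.1% (actin and adhesion signalling). Without peaks at an annotated distance under 2.5 kb, which also drops those in gene bodies, there were 722 clusters with 4535 members, led by 3.99% of genes, and 19 lists lay above all genes. List shares that moved were 0.0% (cholangiocyte, stellate cell and fibroblast, extracellular matrix), 5.0% (AP-1 and immediate early), 5.26% (monocyte and macrophage), 9.09% (efferocytosis and TAM receptor) and 15.8% (endothelial). The share of lead genes with a promoter peak in both libraries was 67.9% at 5 kb and 68.9% counting any assigned gene, of which there were 12.1%. Requiring more overlap of the wild-type peak, or taking peaks from the knockout list, gave 6.93% and 6.11% of genes, and no list moved. The next 3 alternatives were chosen after seeing the data. Leaving out peaks at a nonzero distance under 2.5 kb gave 5.57% of genes and list shares of 0.0% (cholangiocyte, stellate cell and fibroblast) and 10.0% (AP-1 and immediate early), and leaving out peaks within 2.5 kb of a RefSeq start gave 5.38% and 0.0% (cholangiocyte, stellate cell and fibroblast). Among genes with 5 or more shared distal peaks, 37.0% led. List shares that moved were 0.0% (hepatocyte transcription factor, 0 of 4), 45.5% (NF-kB and cytokine signalling, 5 of 11) and 50% (B and plasma cell, bile acid, 1 of 2 each). Others that moved were 66.7% (T and natural killer cell, 2 of 3, AP-1 and immediate early, 4 of 6) and 76.9% (actin and adhesion signalling, 10 of 13). The share was 100% for Kupffer cell genes (5 of 5) and for the stellate cell and fibroblast, neutrophil and housekeeping lists (1 of 1 each). Shares of 1 or 2 genes say little about a list. Over 13 settings the hepatocyte list was never above all genes, and the pan-leukocyte, endothelial, actin and adhesion, AP-1, myeloid transcription factor, NF-kB and efferocytosis lists were always above; Kupffer cell genes were above in 11 and below in 2. Whole-peak and 150 bp motif windows were not run, since peak sequence was not used here. No paired analysis was possible because each genotype had 1 library and no test was made. With 2.06 times as many fragments in the knockout, peaks particular to the wild type and peaks missed for depth are not told apart.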
